A study of Mus musculus with 2 samples.

Results

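Genes for enzymes and readers of chromatin and DNA methylation were compared between cultured mouse embryonic fibroblasts (MEF) and bone marrow derived macrophages (BMDM). They were chosen by symbol alone: DNA methyltransferases, TET dioxygenases, histone methyltransferases, demethylases, acetyltransferases and deacetylases, remodeling ATPases with SWI/SNF subunits, Polycomb and HP1 proteins, ARID, bromodomain and HMGA proteins. The rule took 126 of the 34295 genes in the deposited expression table, and each was placed in 1 of 19 role groups.

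Both wild-type C57BL/6J cultures gave 1 poly(A) RNA library each. The MEF library came from embryonic fibroblasts of stage E13.5 to E14.4, prepared without head and red tissue, depleted by sorting of cells carrying CD45, CD11b or F4/80, and used at passage 4 to 7 from 100000 cells in DMEM-based medium with 10% serum. The BMDM library came from macrophages grown for 6 days out of whole bone marrow in RPMI-based medium with 10% serum and 30% L929-conditioned medium, then replated overnight at 750000 cells. No genetic change or drug treatment is named for either culture, and the number of animals behind each is not given in the labels. The series was deposited to survey growth factors and their receptors.

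DNA methylation in mammals is written on cytosines followed by guanine (CpG) by DNMT enzymes and oxidised by TET enzymes on the way to its removal. Histone tails are marked by methyl- and acetyltransferases, cleared by demethylases and deacetylases, and read by bromodomain, chromodomain and related proteins, while ATP-driven remodelers move or eject nucleosomes. Most of these proteins work in complexes whose slots can be filled by closely related paralogs, so that cell types often differ in which paralog they use.

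Values are transcripts per 1000000 (TPM), a level per transcript length within a library, and they summed to 999545 in the MEF library and 999609 in the BMDM library. With 1 library per cell type there is no replicate error, no test and no p-value, and TPM keep no read depth. A difference is therefore described by size: a gene passes the size rule, and is called higher in MEF or in BMDM, if log2 of (TPM + 1) differs by 2 or more between them and the higher value is at least 5 TPM. All log2 ratios are MEF over BMDM with 1 TPM added to each side. Folds are ratios of the TPM themselves, and a value of 0 is only a listed value. Cell type cannot be told apart from medium, cell number, passage and preparation. A lower value cannot be split into fewer expressing cells and less RNA per cell.

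The libraries carried the markers of their labels. All 10 fibroblast markers were higher in MEF and all 10 macrophage markers higher in BMDM. Of 7 neutrophil markers, 4 were higher in BMDM, with the list summing to 1.93 TPM in MEF and 447 TPM in BMDM. S100a8 and S100a9, which monocytes also express, made up most of that sum, and the neutrophil surface gene Ly6g was listed at 0 in both libraries. Ltf and Camp were listed at 0 in MEF and stood at 12.0 and 5.17 TPM in BMDM, both past the size rule. Mpo stood at 0.0802 TPM in MEF and 2.83 TPM in BMDM, and Elane at 0 in MEF and 2.34 TPM in BMDM. Among 21 proliferation genes none was past the size rule, and their summed level was 1877 TPM in MEF and 1834 TPM in BMDM. Of them 15 had higher TPM in MEF and 6 in BMDM, with log2 ratios from -1.42 to 1.45. The part of these other cells and of the cell cycle in the results below was not tested.

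Of the 126 chromatin genes, 124 had 1 TPM or more in either culture (counted below as detected) and 117 reached 5 TPM, against 11191 of all genes at 5 TPM. The 117 had medians of 22.3 TPM in MEF and 19.5 TPM in BMDM, and 101 of them were at 5 TPM or more in both. Only 12 of the 117 passed the size rule, which is 10.3%, beside 23.1% of all genes at that level. By direction, 7 were higher in MEF (5.98%, beside 14.3% of all genes) and 5 higher in BMDM (4.27%, beside 8.77%). Whatever the size, 65 of the 117 had higher TPM in MEF and 52 in BMDM, beside 6885 and 4306 of the 11191. The median log2 ratio was 0.08 over the detected chromatin genes and 0.28 over all detected genes, and the chromatin value was -0.09 under median-of-ratios scaling and -0.05 after rescaling without mitochondrial and highest genes. At a 2-fold limit, 23 of the 117 differed (19.7%, beside 38.7% of all genes), and the other 94 were within it. The 2-fold limit, here and below, is a log2 ratio of 1 in size with 1 TPM added, and 3 of the 94 had TPM ratios over it, Ezh1 at 2.07, Arid5a at 2.05 and Kdm7a at 2.37, all higher in BMDM. The rank correlation of MEF with BMDM levels (Spearman's rho) was 0.75 for the 117 genes and 0.55 for all 11191, as a description, since genes are not independent replicates and all come from the same pair of libraries. In all, chromatin genes held 0.493% of the MEF and 0.456% of the BMDM transcripts.

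**Figure D1:**
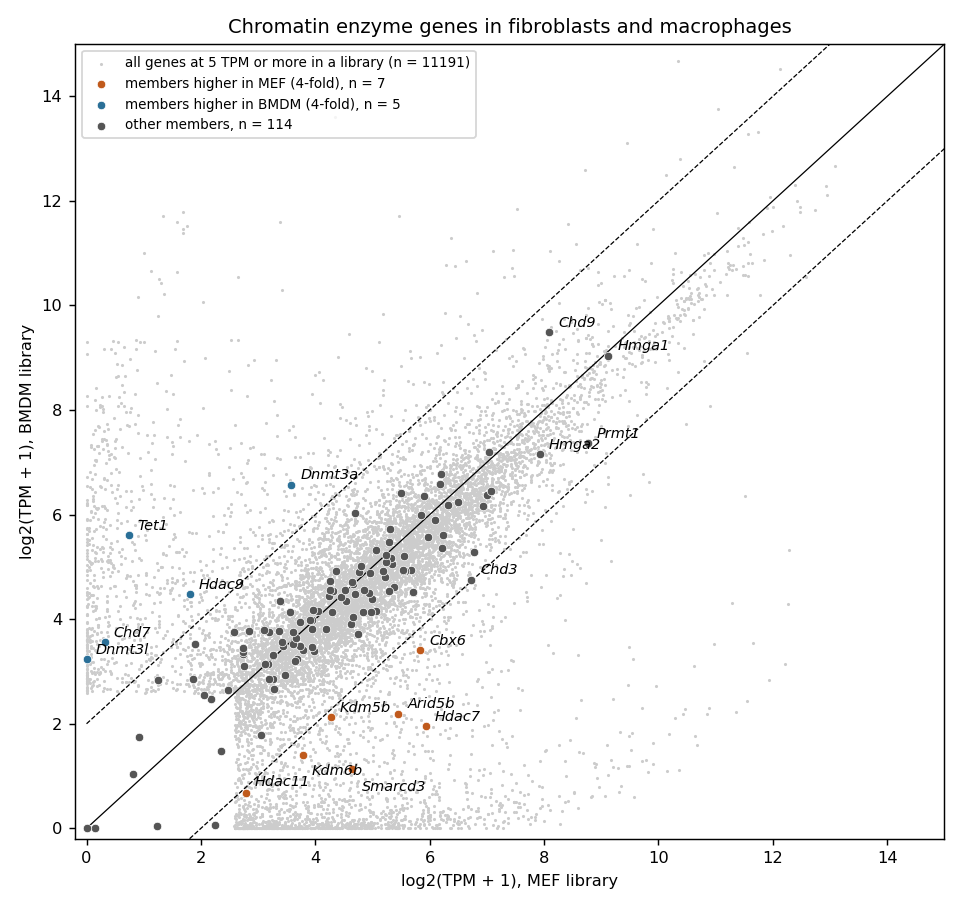
Level of each gene in the MEF library (x axis) and the BMDM library (y axis), as log2 of TPM plus 1, where grey dots are all 11191 genes at 5 TPM or more in a library, larger points are the 126 chromatin genes, the solid line marks equal levels and the dashed lines a 4-fold difference. Most chromatin genes lie near the line, with 7 coloured points on the MEF side and 5 on the BMDM side.

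Promoter sequences are shown first for 5 of the 12 genes past the size rule. Of these, 3 act in DNA methylation and were taken because that methylation is written on CpG. The others are a pair of class IIa deacetylase paralogs that differed in opposite directions. Each run is the gene strand 5′ to 3′, 250 bases before to 50 bases after an annotated start, from RefSeq on GRCm38.p6, and the window listed first was taken where a gene had several. Capitals mark CG. The Dnmt3a window is chr12:3806730-3807029 on the plus strand, Dnmt3l chr10:78042037-78042336 on the plus strand, Tet1 chr10:62887275-62887574 on the minus strand, Hdac7 chr15:97831446-97831745 on the minus strand and Hdac9 chr12:34917046-34917345 on the minus strand.
Dnmt3a: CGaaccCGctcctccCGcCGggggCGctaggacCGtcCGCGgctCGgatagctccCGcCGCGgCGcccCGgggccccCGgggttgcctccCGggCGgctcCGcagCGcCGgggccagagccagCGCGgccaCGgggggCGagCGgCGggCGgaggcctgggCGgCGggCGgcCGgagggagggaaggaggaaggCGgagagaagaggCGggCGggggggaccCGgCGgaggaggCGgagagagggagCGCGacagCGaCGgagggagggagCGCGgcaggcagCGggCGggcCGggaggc
Dnmt3l: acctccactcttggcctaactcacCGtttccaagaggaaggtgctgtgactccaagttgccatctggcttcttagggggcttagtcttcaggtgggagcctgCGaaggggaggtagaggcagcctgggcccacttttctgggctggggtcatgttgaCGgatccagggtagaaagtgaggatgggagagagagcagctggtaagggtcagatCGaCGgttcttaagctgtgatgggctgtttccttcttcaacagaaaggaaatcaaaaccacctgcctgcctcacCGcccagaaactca
Tet1: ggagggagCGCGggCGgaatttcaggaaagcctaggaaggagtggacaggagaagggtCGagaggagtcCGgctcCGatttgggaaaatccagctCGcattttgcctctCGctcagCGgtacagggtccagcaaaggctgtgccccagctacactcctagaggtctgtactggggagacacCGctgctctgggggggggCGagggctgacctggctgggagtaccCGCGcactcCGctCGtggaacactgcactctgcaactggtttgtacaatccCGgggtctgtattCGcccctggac
Hdac7: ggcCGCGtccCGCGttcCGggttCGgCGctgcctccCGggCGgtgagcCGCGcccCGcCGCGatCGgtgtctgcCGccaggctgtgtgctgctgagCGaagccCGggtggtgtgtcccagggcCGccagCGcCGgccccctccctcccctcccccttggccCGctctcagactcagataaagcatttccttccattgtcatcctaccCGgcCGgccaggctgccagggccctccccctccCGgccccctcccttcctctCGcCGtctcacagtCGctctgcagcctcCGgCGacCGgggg
Hdac9: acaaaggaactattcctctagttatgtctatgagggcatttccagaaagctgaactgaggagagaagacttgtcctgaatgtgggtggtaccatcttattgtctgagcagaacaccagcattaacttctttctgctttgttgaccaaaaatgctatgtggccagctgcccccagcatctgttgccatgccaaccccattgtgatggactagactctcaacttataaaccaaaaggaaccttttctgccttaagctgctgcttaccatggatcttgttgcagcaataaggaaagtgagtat

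The CpG number of these windows ran from 0 to 46. The Dnmt3a window held 46 CpGs and the Hdac7 window 31, the Tet1 window held 17 and the Dnmt3l window 6, and the Hdac9 window held none. Genes higher in BMDM thus included both a CpG-dense and a CpG-free window. The first windows of Smarcd3, Cbx6, Hdac11, Kdm5b and Arid5b, all higher in MEF, held 40, 31, 22, 17 and 7. Across the 103 chromatin genes with a window the median was 22 CpGs, beside 21 over the 8627 genes at 5 TPM or more with a window and 7 over all 27025 genes. Windows with 10 or more CpGs made up 91.3% of the chromatin genes and 84.6% of the 8627. Among chromatin genes past the size rule 7 of 10 windows reached 10 CpGs, and among the others 87 of 93. No methylation was measured, and the transcript start used in each culture is unknown.

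Among the DNA methylation enzymes, all 4 DNA methyltransferase genes and all 3 TET genes had lower TPM in MEF than in BMDM, and 3 of these 7 passed the size rule. Of all 11191 genes at 5 TPM or more, 4306 had higher TPM in BMDM, and 8.77% were called higher there. Dnmt3a, a de novo methyltransferase, stood at 10.9 TPM in MEF and 94.0 TPM in BMDM, 8.60-fold higher in BMDM (log2 ratio -2.99). The gene spans chr12:3806007-3914443 (GRCm38, plus strand, ENSMUSG00000020661). Its catalytically inactive cofactor Dnmt3l was listed at 0 TPM in MEF and stood at 8.41 TPM in BMDM (log2 ratio -3.23), and spans chr10:78041947-78063622 (plus strand). The CpG-poor Dnmt3l window above and the CpG-dense Dnmt3a window therefore belong to genes with the same direction. The maintenance enzyme gene Dnmt1, which copies methylation after replication, stood at 44.2 TPM in MEF and 84.1 TPM in BMDM and did not pass the size rule (log2 ratio -0.91). The other de novo enzyme gene, Dnmt3b, was low, at 0.760 TPM in MEF and 1.04 TPM in BMDM. The summed level of the 3 genes with catalytic activity was 55.9 TPM in MEF and 179 TPM in BMDM. Dnmt1 made up 79.1% of it in MEF and 46.9% in BMDM, and Dnmt3a made up 19.6% in MEF and 52.5% in BMDM. In BMDM Dnmt3a thus stood above Dnmt1, and in MEF below it.

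Tet1 had the log2 ratio of greatest size among the 126 genes, at -4.86. It encodes a dioxygenase that oxidises methylated cytosine, is best known from pluripotent and germ cells, and stood at 0.667 TPM in MEF and 47.5 TPM in BMDM, a 71.3-fold difference. It spans chr10:62804570-62908996 (minus strand, ENSMUSG00000047146), and the RefSeq start whose window is printed above lies inside that span. The pluripotency genes Pou5f1, Nanog, Zfp42 and Lin28a were all under 1 TPM in both libraries, with list sums of 0.183 TPM in MEF and 0.229 TPM in BMDM. The related Tet3 stood at 4.99 TPM in MEF and 12.5 TPM in BMDM (log2 ratio -1.18). Tet2, a gene often mutated in myeloid cancers, stood at 3.50 TPM in MEF and 4.54 TPM in BMDM and did not reach 5 TPM in either. The TET genes together gave 9.16 TPM in MEF and 64.6 TPM in BMDM, of which Tet1 was 7.28% in MEF and 73.6% in BMDM. Tet3 was the leading TET transcript in MEF, at 54.5% of the family.

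Of 11 further genes of the DNA methylation pathway, 1 was past the size rule: Gadd45g, a stress-induced gene linked to demethylation, at 251 TPM in MEF and 42.5 TPM in BMDM. Uhrf1, which brings DNMT1 to newly replicated DNA, stood at 41.4 TPM in MEF and 56.5 TPM in BMDM. Methyl-CpG reader genes were present in both libraries, with Mbd2 at 102 TPM in MEF and 190 TPM in BMDM, and Mbd3, whose product sits in the NuRD complex, at 180 TPM in MEF and 91.5 TPM in BMDM.

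**Figure D2:**
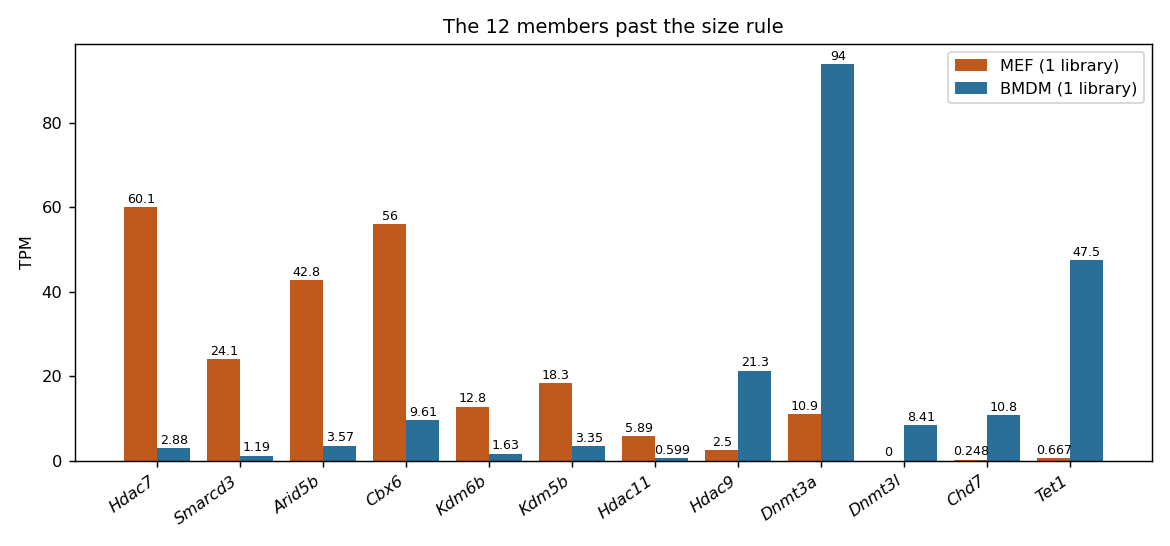
TPM of the 12 chromatin genes past the size rule, ordered by log2 ratio, with the MEF library on the left and the BMDM library on the right of each pair (1 library each, so there are no error bars). Hdac7 at 60.1 TPM and Cbx6 at 56.0 TPM are the tallest MEF bars, and Dnmt3a at 94.0 TPM and Tet1 at 47.5 TPM the tallest BMDM bars.

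The histone deacetylases held the second contrast. HDAC7 and HDAC9 are class IIa deacetylases, corepressors that shuttle between nucleus and cytoplasm and bind MEF2 transcription factors. Hdac7 stood at 60.1 TPM in MEF and 2.88 TPM in BMDM (20.9-fold higher in MEF, log2 ratio 3.98, the largest on that side), and Hdac9 at 2.50 TPM in MEF and 21.3 TPM in BMDM (8.53-fold higher in BMDM, log2 ratio -2.67). Hdac7 spans chr15:97792664-97844502 and Hdac9 chr12:34047580-34917095, both on the minus strand. Class IIa paralogs Hdac5, at 38.2 TPM in MEF and 43.6 TPM in BMDM, and Hdac4, at 14.7 TPM in MEF and 9.54 TPM in BMDM, were within 2-fold. Summed, class IIa genes gave 116 TPM in MEF and 77.4 TPM in BMDM, so the total differed less than Hdac7 or Hdac9 did. Hdac7 made up 52.0% of the class in MEF and 3.72% in BMDM, whereas Hdac9 made up 2.16% in MEF and 27.5% in BMDM. The class IIb genes Hdac6, whose product deacetylates tubulin, and Hdac10 were between 10.3 and 12.2 TPM in both libraries.

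Class I deacetylases, the catalytic core of the SIN3, NuRD and CoREST corepressor complexes, were more abundant in MEF in 3 of 4 cases, with none past the size rule. Higher TPM in MEF was also listed for 6885 of all 11191 genes at 5 TPM or more. Hdac1 stood at 120 TPM in MEF and 70.6 TPM in BMDM, and Hdac2 at 109 TPM in MEF and 37.8 TPM in BMDM (log2 ratio 1.50). Hdac3, the partner of the NCOR corepressors, stood at 72.9 TPM in MEF and 40.0 TPM in BMDM. Only Hdac8 had the opposite order in this class, at 5.71 TPM in MEF and 7.57 TPM in BMDM. The class I sum was 308 TPM in MEF and 156 TPM in BMDM, a 1.97-fold difference. The single class IV gene, Hdac11, just passed the size rule at 5.89 TPM in MEF and 0.599 TPM in BMDM (log2 ratio 2.11). Under median-of-ratios scaling its log2 ratio was 1.99, below the limit.

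Sirtuins, the NAD-dependent deacylases, showed no member past the size rule among 7. Sirt7, a nucleolar deacylase, had the largest difference, 2.59-fold higher in BMDM at 64.7 TPM there (log2 ratio -1.34), followed by the mostly cytoplasmic Sirt2 at 72.2 TPM in MEF and 109 TPM in BMDM. The mitochondrial members Sirt3, Sirt4 and Sirt5 lay between 8.43 and 12.8 TPM in both libraries. Sirt1 stood at 11.2 TPM in MEF and 12.4 TPM in BMDM, and Sirt6 differed from it little.

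Corepressor partners of these enzymes were similar in level, with 1 of 9 past the size rule. That gene was Rcor2, a CoREST subunit known from stem and neural cells, at 6.38 TPM in MEF and 0.704 TPM in BMDM. Ncor1 stood at 79.5 TPM in MEF and 77.3 TPM in BMDM, and Sin3b at 135 TPM in MEF and 151 TPM in BMDM.

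Among 18 histone lysine demethylase genes, 2 were higher in MEF, none in BMDM, and 14 of the 17 at 5 TPM or more had log2 ratios under 1 in size. Of all genes at that level, 14.3% were higher in MEF, 8.77% were higher in BMDM and 61.3% had log2 ratios under 1 in size. Kdm6b encodes JMJD3, which removes the repressive methyl mark that Polycomb places on histone H3 and is known in macrophages as an inflammation-induced gene. It stood at 12.8 TPM in MEF and 1.63 TPM in BMDM (7.83-fold higher in MEF, log2 ratio 2.39). Neither culture is labelled as stimulated. Its X-linked paralog Kdm6a was level, at 7.73 TPM in MEF and 7.82 TPM in BMDM, so Kdm6b made up 62.3% of the pair in MEF and 17.3% in BMDM.

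Kdm5b encodes a demethylase of the histone H3 mark of active promoters and was higher in MEF, at 18.3 TPM in MEF and 3.35 TPM in BMDM (5.46-fold, log2 ratio 2.15). Median-of-ratios scaling brought it to 1.99. Paralogs Kdm5a, at 29.6 TPM in MEF and 21.5 TPM in BMDM, and the X-linked Kdm5c, at 40.4 TPM in MEF and 23.4 TPM in BMDM, were within 2-fold. The Y-linked Kdm5d stood at 5.63 TPM in MEF and 9.90 TPM in BMDM. Other Y-linked genes, Ddx3y, Eif2s3y and Uty, were at 5.57 TPM or more in both libraries. In the same list Kdm8 stood at 7.28 TPM in MEF and 2.43 TPM in BMDM (log2 ratio 1.27), and Kdm7a at 2.64 TPM in MEF and 6.25 TPM in BMDM (2.37-fold higher in BMDM by TPM, log2 ratio -0.99). Kdm1a, which encodes the flavin-dependent demethylase LSD1, was the highest of the list in MEF at 45.2 TPM and stood at 29.3 TPM in BMDM. Kdm2a was the highest in BMDM, at 39.0 TPM in MEF and 34.9 TPM in BMDM. Kdm2b lay on the other side of Kdm2a, at 19.7 TPM in MEF and 29.2 TPM in BMDM, and Kdm4a and Kdm4b, which act on heterochromatin marks, stood at 37.8 and 8.59 TPM in MEF and 22.2 and 8.79 TPM in BMDM. Kdm4d was under 1 TPM in both.

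Among the remodelers at 5 TPM or more, 1 of 11 SWI/SNF genes and 1 of 8 CHD genes passed the size rule, beside 23.1% of all genes. Of the 8 CHD genes 5 were within 2-fold, beside 61.3% of all genes at that level. In SWI/SNF, an ATP-driven complex that opens chromatin at enhancers and promoters, 10 of 11 genes were within 2-fold. The exception was Smarcd3, which encodes BAF60C, a variant subunit known from heart and skeletal muscle. It stood at 24.1 TPM in MEF and 1.19 TPM in BMDM (20.3-fold higher in MEF, log2 ratio 3.52) and spans chr5:24590818-24624411 (minus strand). Of 4 muscle markers, Myod1, Myog and Actc1 were listed at 0 in both libraries, and Des stood at 6.11 TPM in MEF and 0 in BMDM. The alternative D-subunit gene Smarcd2 stood at 38.5 TPM in MEF and 51.6 TPM in BMDM. Smarcd1 made up 21.5% of the summed D-subunit TPM in MEF and 19.8% in BMDM. Which D subunits the complexes held was not measured. As shares, Smarcd3 was 30.2% of D-subunit transcripts in MEF and 1.80% in BMDM, and Smarcd2 was 48.2% in MEF and 78.4% in BMDM.

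The SWI/SNF ATPase genes kept nearly the same balance in both cell types. Smarca4, encoding BRG1, stood at 61.8 TPM in MEF and 46.5 TPM in BMDM, and Smarca2, encoding BRM, at 30.2 TPM in MEF and 16.7 TPM in BMDM. Smarca4 made up 67.2% of the pair in MEF and 73.6% in BMDM. Scaffold subunits Smarcc1 and Smarcc2 stood at 46.6 and 56.4 TPM in MEF and at 29.3 and 63.1 TPM in BMDM. Core subunit Smarce1 was the most abundant of the complex at 133 TPM in MEF and 86.4 TPM in BMDM, and Smarcb1, second in MEF, stood at 74.4 TPM in MEF and 47.7 TPM in BMDM. The DNA-binding subunit genes Arid1a and Arid1b stood at 24.0 and 10.7 TPM in MEF and at 25.2 and 16.7 TPM in BMDM. Of 16 further subunit genes outside the symbol rule none was past the size rule, with beta-actin (Actb), which is also a cytoskeletal protein, the highest at 3940 TPM in MEF and 4292 TPM in BMDM, although Dpf1 came near it at 4.94 TPM in MEF and 0.511 TPM in BMDM (log2 ratio 1.97).

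ISWI remodelers space nucleosomes, and their ATPase is SNF2H, from Smarca5, in most cells and SNF2L, from Smarca1, in fewer. Smarca5 stood at 50.3 TPM in MEF and 29.6 TPM in BMDM. Smarca1 had a log2 ratio of 2.17 but reached only 3.74 TPM in MEF, against 0.0516 TPM in BMDM, and so missed the 5 TPM minimum. Smarcad1, a remodeler of replicated and repaired chromatin, stood at 32.3 TPM in MEF and 38.9 TPM in BMDM.

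The CHD remodelers divided by member. Chd7, mutated in human CHARGE syndrome, a disorder of neural crest-derived and other organs, stood at 0.248 TPM in MEF and 10.8 TPM in BMDM (43.6-fold higher in BMDM, log2 ratio -3.24) and spans chr4:8690406-8867659 (plus strand). Its near relative Chd8 was level at 21.8 TPM in MEF and 22.7 TPM in BMDM. Among the NuRD-type ATPases, which sit in a complex joining remodeling to deacetylation, Chd3 stood at 105 TPM in MEF and 26.1 TPM in BMDM. That is a 4.02-fold ratio of TPM, but its log2 ratio with the added 1 was 1.97, making it the nearest gene outside the size rule. Chd4, the other main NuRD ATPase, stood at 78.8 TPM in MEF and 71.7 TPM in BMDM. Chd3 thus made up 56.6% of the NuRD-type transcripts in MEF and 26.7% in BMDM, and Chd4 42.6% in MEF and 73.3% in BMDM. None of 5 further NuRD genes was past the size rule, the highest being Mta2 at 90.2 TPM in MEF and 64.6 TPM in BMDM, and Mta1 had the largest difference of them at 82.4 TPM in MEF and 24.1 TPM in BMDM (log2 ratio 1.73).

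Chd9 was the most abundant of all 126 genes in BMDM, at 271 TPM in MEF and 718 TPM in BMDM (log2 ratio -1.40). This stands far above its relatives, of which Chd6 had 10.0 TPM in MEF and 6.63 TPM in BMDM. GENCODE M21 lists 15 transcripts of Chd9, of 259 to 12008 bases. A gene's TPM add up transcripts per length, so short ones weigh more per read, and which transcripts carried the value was not tested. The same limit holds for other genes, such as Tet1, with 10 transcripts of 361 to 14369 bases. Dnmt3a has 18 transcripts of 369 to 9685 bases. Chd1 and Chd2 were within 2-fold, at 36.3 and 14.0 TPM in MEF and 27.1 and 14.9 TPM in BMDM. Chd5, a neural member, stood at 1.34 TPM in MEF and 0.0308 TPM in BMDM.

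**Figure D3:**
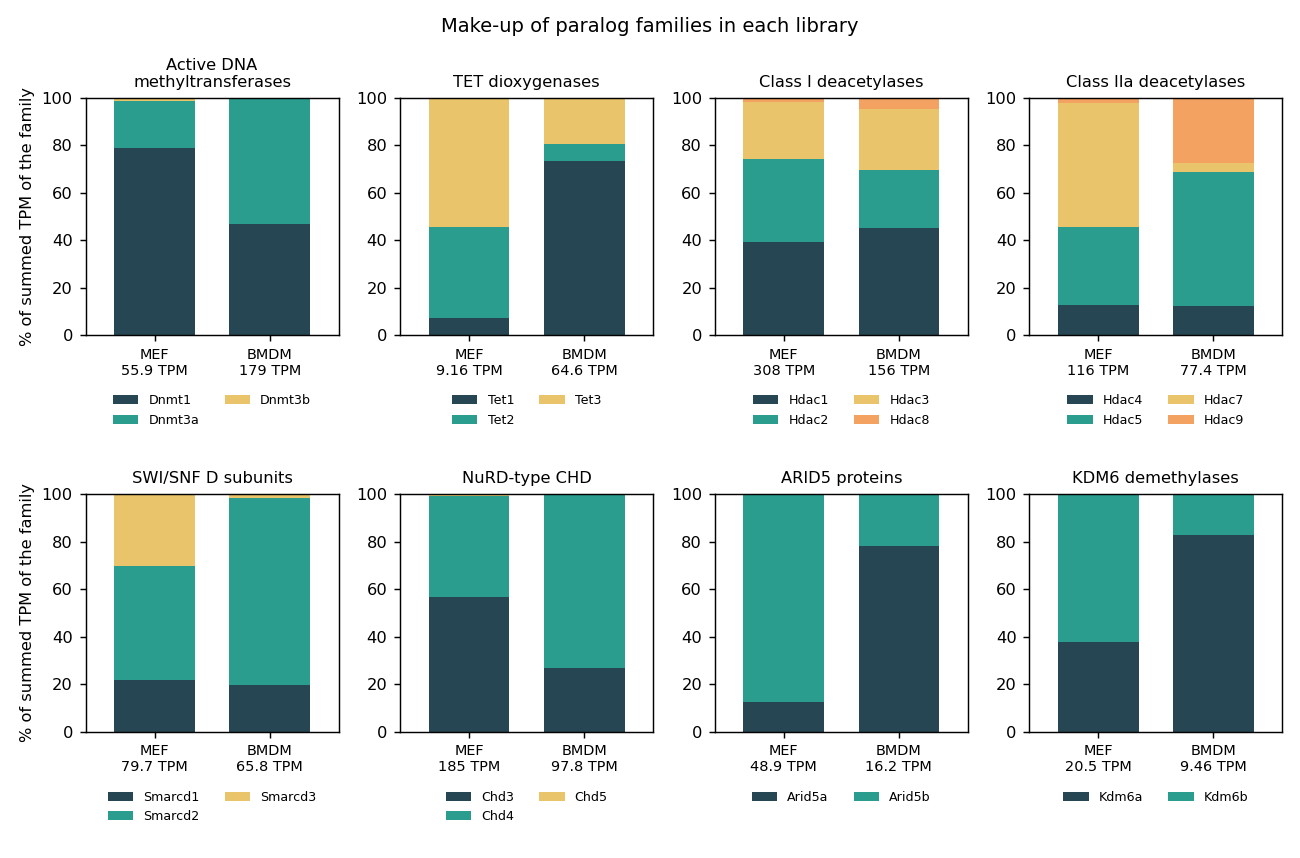
Share of each paralog in the summed TPM of 8 families, in percent, with the MEF library on the left and the BMDM library on the right of each panel and the family sum under each bar. Tet1 is 7.28% of its family in MEF and 73.6% in BMDM, Arid5a is 12.6% in MEF and 78.0% in BMDM, and Hdac7 is 52.0% in MEF and 3.72% in BMDM, while the class I deacetylase bars differ little.

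Shares within a library do not move with the scaling of that library, so 30 listed paralog pairs were also compared in this way. In 9 pairs the share of a member differed by 20 percentage points or more between the libraries. Hdac7 with Hdac9 differed most, by 84.1 points, followed by Arid5a with Arid5b at 65.4 points, Smarcd1 with Smarcd3 (Smarcd1 41.6% in MEF and 91.7% in BMDM) and Kdm6a with Kdm6b at 45.0 points. The other pairs were Cbx2 with Cbx7, Dnmt1 with Dnmt3a, Chd7 with Chd8, Chd3 with Chd4 and Kdm5a with Kdm5b, at 38.8 to 24.7 points. The Cbx2 and Cbx7 pair rests on levels under 5 TPM. Most of the 9 pairs hold a gene past the size rule, and shares use the same TPM, so they are no separate support. Paralog pairs over all genes were not compared, so no background share stands beside 9 of 30.

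The other ARID proteins bind AT-rich DNA and included a further opposed pair. Arid5b, a cofactor in mesenchymal and fat cell differentiation, stood at 42.8 TPM in MEF and 3.57 TPM in BMDM (12.0-fold higher in MEF, log2 ratio 3.26) and spans chr10:68092520-68278740 (minus strand). Arid5a, whose product also stabilises inflammatory mRNAs, stood at 6.16 TPM in MEF and 12.6 TPM in BMDM. The paralogs Arid3a and Arid3b lay on the same side as Arid5a, at 2.73 and 1.37 TPM in MEF and 10.6 and 6.11 TPM in BMDM, with log2 ratios of -1.63 and -1.58. Arid4a and Arid4b, partners of the SIN3 complex, stood at 7.58 and 11.4 TPM in MEF and 12.8 and 8.19 TPM in BMDM.

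Polycomb repression rests on PRC2, which methylates histone H3, and on PRC1, whose CBX subunits read that methylation. The 4 PRC2 core genes all had log2 ratios under 1 in size. Ezh2, the main methyltransferase of dividing cells, stood at 26.8 TPM in MEF and 31.2 TPM in BMDM, and Ezh1, more typical of resting cells, at 9.41 TPM in MEF and 19.5 TPM in BMDM, 2.07-fold higher in BMDM by TPM (log2 ratio -0.98). Suz12 stood at 26.1 TPM in MEF and 28.9 TPM in BMDM, and Eed at 67.3 TPM in MEF and 58.3 TPM in BMDM. None of 7 PRC2 partner genes was past the size rule, the highest being the histone chaperone gene Rbbp7 at 275 TPM in MEF and 126 TPM in BMDM.

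The Polycomb CBX genes differed through 1 member. Cbx6 stood at 56.0 TPM in MEF and 9.61 TPM in BMDM (5.83-fold higher in MEF, log2 ratio 2.43) and spans chr15:79823896-79834688 (minus strand). Cbx8 was level at 4.52 TPM in MEF and 5.26 TPM in BMDM. Cbx2 and Cbx7 were under 5 TPM, at 4.09 and 0.890 TPM in MEF and 1.80 and 2.35 TPM in BMDM. All 14 other PRC1 genes listed were outside the size rule, with Phc2 the highest at 90.8 TPM in MEF and 67.6 TPM in BMDM, and among them the core ubiquitin ligase gene Rnf2 at 39.5 TPM in MEF and 20.3 TPM in BMDM and Bmi1 at 48.5 TPM in MEF and 25.5 TPM in BMDM.

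HP1 genes, whose products read the methyl mark of heterochromatin, were all more abundant in MEF and none was past the size rule. Of all 11191 genes at 5 TPM or more, 6885 had higher TPM in MEF. Cbx3 stood at 128 TPM in MEF and 81.7 TPM in BMDM, Cbx1 at 45.7 TPM in MEF and 36.0 TPM in BMDM, and Cbx5 at 51.3 TPM in MEF and 21.9 TPM in BMDM (log2 ratio 1.19). Cbx3 has processed copies in the genome, and 1 of them, Cbx3-ps6, was listed at 6.39 TPM in MEF and 0 in BMDM, so how its reads were shared out with Cbx3 is not known.

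Histone methyl- and acetyltransferases differed little. All 7 MLL and SETD1 genes, which write the methyl marks of promoters and enhancers, were within 2-fold, with Kmt2b at 24.1 TPM in MEF and 15.5 TPM in BMDM, and Kmt2e, a family member without known activity of this kind, at 18.7 TPM in MEF and 22.2 TPM in BMDM. Setd1a and Setd1b stood at 23.6 and 8.03 TPM in MEF and 14.1 and 7.85 TPM in BMDM. The enhancer methyltransferase genes Kmt2c and Kmt2d stood at 5.65 and 9.69 TPM in MEF and 9.13 and 10.8 TPM in BMDM. All 7 lysine acetyltransferase genes were within 2-fold as well, led by Kat7 at 36.8 TPM in MEF and 36.5 TPM in BMDM. The SAGA enzyme genes Kat2a and Kat2b stood at 35.3 and 11.6 TPM in MEF and 29.3 and 11.4 TPM in BMDM. Kat6a, known for its role in blood stem cells, and Kat6b stood at 14.3 and 8.68 TPM in MEF and 14.7 and 5.30 TPM in BMDM. Of 11 other SET-domain genes Setd7 alone reached a 2-fold difference, at 25.7 TPM in MEF and 12.2 TPM in BMDM. Kmt5a, the methyltransferase of histone H4 in the cell cycle, stood at 89.2 TPM in MEF and 74.5 TPM in BMDM, and Setd3, which methylates actin, at 71.2 TPM in MEF and 94.8 TPM in BMDM. The heterochromatin enzyme genes Setdb1 and Setdb2 stood at 17.8 and 5.68 TPM in MEF and 20.7 and 9.36 TPM in BMDM.

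Outside the symbol rule, none of 18 further methyl- and acetyltransferase genes and none of 9 COMPASS subunit genes was past the size rule. The highest of the 18 in MEF was Ehmt2, which writes a repressive mark on histone H3, at 90.1 TPM in MEF and 69.0 TPM in BMDM. In BMDM it was Hat1, which acetylates new histone H4, at 69.9 TPM in MEF and 75.0 TPM in BMDM. Dpy30, the highest of the 9 COMPASS genes, had a log2 ratio of -0.75. The coactivator genes Ep300 and Crebbp stood at 18.4 and 9.47 TPM in MEF and 36.4 and 8.18 TPM in BMDM. Carm1, an arginine methyltransferase, had the largest MEF-side log2 ratio of these at 1.83, with 78.3 TPM in MEF and 21.3 TPM in BMDM. On the BMDM side Dot1l, which methylates the core of histone H3, stood at 17.6 TPM in MEF and 49.9 TPM in BMDM (log2 ratio -1.45). Over all 89 partner genes listed, of which 83 reached 5 TPM, 2 were higher in MEF and none in BMDM. Of all genes at that level, 14.3% were higher in MEF and 8.77% in BMDM. The counts for the separate partner lists stand beside the same shares.

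Bromodomain, arginine methyltransferase and HMGA genes had no member past the size rule. The BET genes, whose products bind acetylated histones and aid transcript elongation, were led by Brd2 at 130 TPM in MEF and 146 TPM in BMDM, and Brd3 stood at 27.5 TPM in MEF and 16.7 TPM in BMDM. Brd7, a SWI/SNF subunit, stood at 58.5 TPM in MEF and 80.9 TPM in BMDM. Prmt1, the main arginine methyltransferase, was second among the 126 genes in MEF at 434 TPM and stood at 164 TPM in BMDM (log2 ratio 1.39). The other 6 detected arginine methyltransferase genes were within 2-fold and lay between 8.08 and 39.6 TPM, and Prmt8, a brain gene, was listed at 0 in both.

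HMGA proteins bend AT-rich DNA and are typical of embryonic and proliferating cells. Hmga1 was the most abundant chromatin gene in MEF, at 557 TPM, and stood at 526 TPM in BMDM. Hmga2 stood at 242 TPM in MEF and 142 TPM in BMDM (log2 ratio 0.77), so both genes were among the 5 highest of the 126 in each library. Proliferation genes had similar sums in the same libraries, but single genes differed in both directions. Top2a was level at 105 TPM in MEF and 102 TPM in BMDM. Pcna stood at 201 TPM in MEF and 540 TPM in BMDM, and Rrm2 at 211 TPM in MEF and 76.6 TPM in BMDM.

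**Figure D4:**
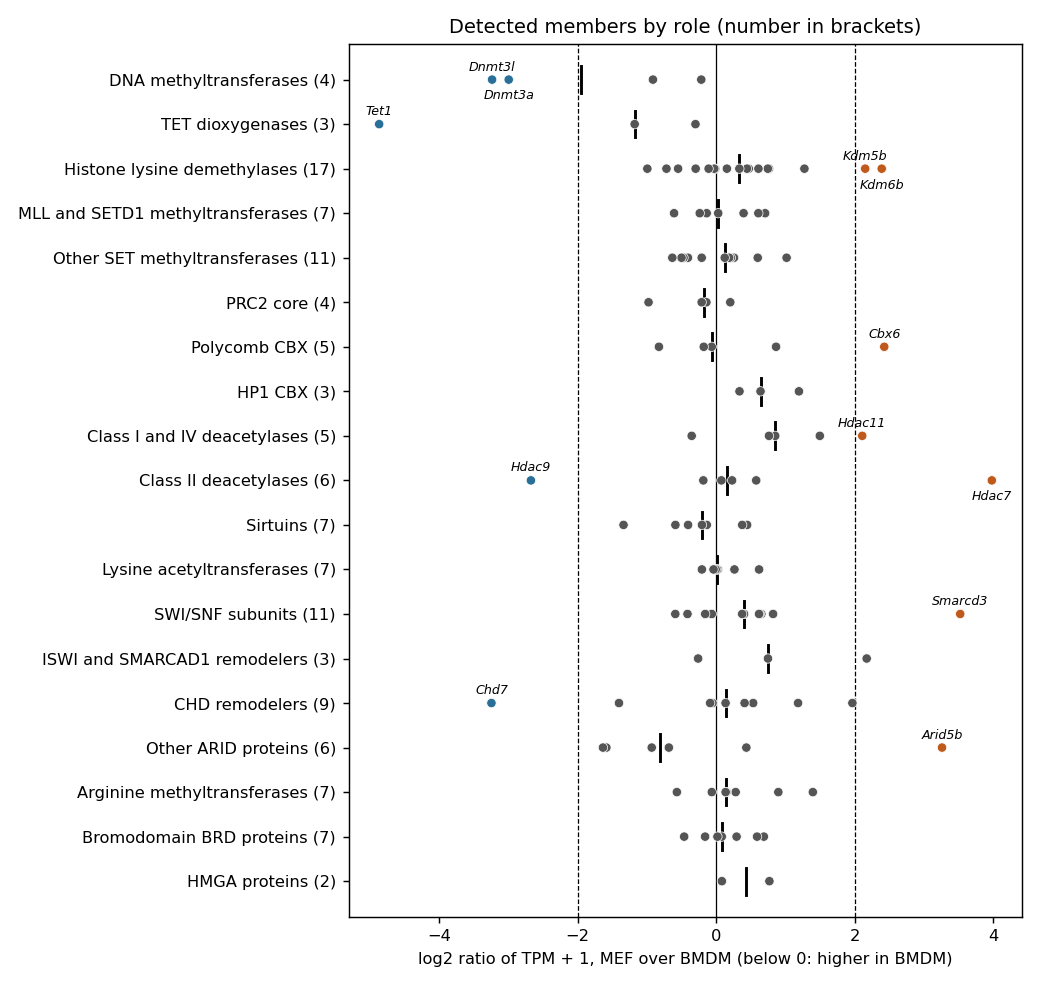
Log2 ratio of TPM plus 1 (MEF over BMDM, positive values higher in MEF) of each detected chromatin gene, in 19 role groups with the number of detected genes in brackets. Black bars are group medians, dashed lines the 4-fold limit, and coloured points genes past the size rule; Smarca1 at 2.17 is grey because it stayed under 5 TPM.

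Group by group, 9 of the 19 role groups had a gene past the size rule and 10 had none. Of all genes at 5 TPM or more, 23.1% passed the size rule and 61.3% had log2 ratios under 1 in size. Many groups are small, and groups of like size were not drawn from all genes, so the group counts are description only. In 6 groups every gene at 5 TPM or more had a log2 ratio under 1 in size: MLL and SETD1 methyltransferases, the PRC2 core, lysine acetyltransferases, ISWI with Smarcad1, bromodomain and HMGA genes, 29 genes in all. These 6 were picked by that outcome. The ISWI group is among them only because Smarca1, with a log2 ratio of 2.17, stayed under 5 TPM. Group medians lay between -1.95 for the DNA methyltransferases and 0.85 for the class I and IV deacetylases. The genes nearest to the limit on the inside were Hdac11, Kdm5b and Kdm6b, with log2 ratios of 2.11, 2.15 and 2.39. Nearest outside were Chd3, Arid3a and Arid3b, at 1.97, -1.63 and -1.58.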

How the data were processed

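Poly(A) RNA of 1 MEF and 1 BMDM culture was sequenced, per the labels' protocols, with a stranded Illumina kit and paired reads of 76 bases. The authors used kallisto 0.43.1 and GRCm38, per the submitters' processing notes. The header of the deposited table names no unit, and its values were taken as TPM because each column sums to just under 1000000. The transcript set, any filter and the summing to genes were not stated. Depth is unknown, so no interval or detection limit is given.

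The table of 34456 rows was reduced to 34295 genes by adding rows that share a symbol; no chromatin gene stood on more than 1 row. Log2 ratios used a pseudocount of 1. All 126 genes matched GENCODE M21 (GRCm38), the source of coordinates, and 103 a RefSeq promoter window. The counting procedure was run on simulated data as a check of the counting alone. Without replicates of these libraries, that run could not show whether the genes called here, low ones included, were called correctly. No statistical test was run.

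Members, gene lists and the size rule were chosen with earlier results of these data known. The families drawn as shares were chosen after the values were seen. Named genes are those past the size rule or a 2-fold limit, the highest of each role group and the listed paralogs, and of the partner lists those past the rule or the highest; others were added after their values were seen, and some genes are not reported here. Alternatives covered pseudocount, minimum, fold, scaling, row handling and gene type. Python 3.11.15, pandas 2.3.3 and numpy 2.4.6 were used.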

Additional observations from a re-analysis of the deposited data

How the results depend on the processing

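A pseudocount of 5, which pulls low genes toward 0, left 4 chromatin genes higher in MEF and 2 in BMDM, in 2 role groups on the BMDM side, and 896 and 652 of all genes. The genes that fell below the limit then were Hdac11, Kdm5b, Kdm6b, Chd7, Dnmt3l and Hdac9, at 0.96, 1.48, 1.42, -1.59, -1.42 and -1.81. A 2-fold rule gave 13 chromatin genes higher in MEF, in 10 role groups, and 10 in BMDM, beside 2637 and 1698 of all genes. Median-of-ratios scaling, which lowered every log2 ratio of TPM by 0.18 before the pseudocount and by less for low genes after it, took Hdac11 and Kdm5b to 1.99 each. The chromatin median changed sign with it, to -0.09. A minimum of 10 TPM left out Hdac11 and Dnmt3l, and a minimum of 1 TPM or none brought in Smarca1. A pseudocount of 0.1 brought in Chd3 at 2.00 and Arid3b at -2.08. No named gene changed direction while past the size rule, but these alternatives could not have reversed one. Pseudocount, minimum and fold leave the sign of a ratio unchanged, and row handling touched no chromatin gene. The scalings shifted ratios by far less than the limit of 2. Without replicates, nothing here measures error, and the unknown depth limits every value near 0. No paired analysis was possible because each cell type had 1 library.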
